A study of Homo sapiens with 183 samples.

Results

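Laminin-332 and its hemidesmosome receptors are described here by 8 genes, LAMA3, LAMB3, COL17A1, ITGA3, ITGA6, ITGB4, DST and PLEC, chosen by name from the 19875 gene names in the expression tables. All 8 were present in all 8 tables. Levels were read as TPM, a share of the library's RNA corrected for transcript length that sums to the same total in every library, in 183 RNA-seq libraries of established human cell lines.

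The libraries came from Cas9-expressing pancreatic ductal adenocarcinoma lines infected with single guide RNAs and collected on day 5, and from lines treated for 24 h with CB-6644, an allosteric inhibitor of the RUVBL1/2 ATPase complex, or with DMSO. AsPC-1 and SUIT-2 are classical lines, T3M-4 and BxPC-3 are basal-like lines, and CFPAC-1 was given no class in the sources used here. The control guide sgRosa, aimed at the ROSA26 locus, was compared with sgKLF5 in all of these lines, with sgRUVBL1, sgRUVBL2, sgCDK1 and sgRpa3 in AsPC-1, T3M-4, BxPC-3 and CFPAC-1 (sgRUVBL1 in 2 experiments of AsPC-1), and with sgSERPINB5 and sgCHD4 in AsPC-1. KLF5 is the transcription factor the study is built on, CDK1 encodes the kinase that drives entry into mitosis, RPA3 a subunit of the replication protein A complex, CHD4 is a chromatin remodeller and SERPINB5 a serpin. Vector-bearing AsPC-1 and T3M-4 cells (empty vector, or a vector expressing a drug-resistance variant, A62T of RUVBL1 or dF109 of RUVBL2) had 3 CB-6644 libraries and 1 DMSO library each. T84 colorectal carcinoma, A375 melanoma, H1048 small cell lung cancer of the tuft-like subtype and RH30 rhabdomyosarcoma had 4 CB-6644 and 4 DMSO libraries each. Replicate numbers of the knockout libraries have a first part that was read as the experiment, since no other label gives one. Each knockout group was a pool of infected cells, not a clone. KLF5, RUVBL1, RUVBL2 and ROSA26 were each targeted by 2 guides and CDK1 and RPA3 by 1, and the labels do not tie guides to libraries. The study describes the KLF5, RUVBL1 and RUVBL2 knockout replicates as biological. The labels do not say whether replicates were separate cultures, so the p-values below measure the spread between these libraries, which may be technical in part.

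Laminin-332, to which LAMA3 gives the alpha3 and LAMB3 the beta3 chain, is a trimer that epithelial cells deposit in the basement membrane. Integrin alpha6beta4 binds it at the cell base and nucleates the hemidesmosome, where the transmembrane collagen XVII (COL17A1) and the plakins plectin (PLEC) and dystonin (DST, the BPAG1 gene) join the integrin to keratin filaments. Integrin alpha3 (ITGA3) pairs with beta1 and binds the same laminin from outside the hemidesmosome, linking it to actin. These genes are best known from skin, where their loss causes blistering disease, and they are also expressed by carcinoma cells of ductal and squamous type.

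The 250 bases before an annotated start are printed for both laminin chains and for the genes with the largest KLF5-knockout changes, COL17A1 and ITGA6, because KLF5 is a zinc finger protein of the family that binds CACCC and GC boxes. They are RefSeq promoter sequences of GRCh38.p14, written 5′ to 3′ on the strand of the gene, with CACCC (on either strand, so also GGGTG) in capitals. The RefSeq table used here had an entry for 5 of the 8 genes, the fifth being DST. It listed 3 starts for LAMB3, 2 for ITGA6 and 3 for DST. Only the start farthest upstream was read for each, so matches before the other starts were not counted. The LAMA3 window is chr18:23872770-23873019 and belongs to a start inside the gene. The LAMB3 window is chr1:209652426-209652675, that of COL17A1 is chr10:104085881-104086130 and that of ITGA6 is chr2:172427086-172427335.
LAMA3: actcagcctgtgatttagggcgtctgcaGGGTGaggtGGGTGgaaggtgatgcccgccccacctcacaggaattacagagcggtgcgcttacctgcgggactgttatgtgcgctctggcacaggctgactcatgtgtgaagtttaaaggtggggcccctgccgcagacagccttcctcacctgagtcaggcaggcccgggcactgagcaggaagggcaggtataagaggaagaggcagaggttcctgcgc
LAMB3: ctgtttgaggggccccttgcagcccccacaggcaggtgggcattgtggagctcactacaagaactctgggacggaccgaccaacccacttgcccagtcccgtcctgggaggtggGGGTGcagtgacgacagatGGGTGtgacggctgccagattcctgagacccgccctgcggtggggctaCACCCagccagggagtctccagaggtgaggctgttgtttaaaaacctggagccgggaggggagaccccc
COL17A1: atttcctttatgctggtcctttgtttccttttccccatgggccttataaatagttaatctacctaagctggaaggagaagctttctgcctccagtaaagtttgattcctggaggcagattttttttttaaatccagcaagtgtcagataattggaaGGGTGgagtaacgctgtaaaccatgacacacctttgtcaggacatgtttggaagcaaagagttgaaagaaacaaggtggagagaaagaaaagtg
ITGA6: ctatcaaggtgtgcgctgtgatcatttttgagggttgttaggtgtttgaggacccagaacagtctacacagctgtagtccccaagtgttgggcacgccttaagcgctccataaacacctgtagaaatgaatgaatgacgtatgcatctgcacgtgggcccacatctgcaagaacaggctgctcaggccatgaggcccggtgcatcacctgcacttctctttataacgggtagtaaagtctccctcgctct
Read on both strands, CACCC occurred 2 times before LAMA3, 3 times before LAMB3, 1 time before COL17A1 and 0 times before ITGA6 and DST. It was present in 54.7% of 35116 windows of this length, against which the 3 of 5 members holding it are to be read. The GC box GGGCGG, present in 42.6% of windows, occurred 1 time before LAMA3, 1 time before LAMB3 and 4 times before DST. The AP-1 site TGANTCA, present in 6.57% of windows, occurred 2 times before LAMA3 and 0 times in the other windows. CACCC and GGGCGG matches can share a base, TGANTCA reads the same on both strands, and a match describes the letters, not a binding site.

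In the GRCh38 annotation LAMA3 lies on chromosome 18 at 23689453-23956222 (plus strand), LAMB3 on chromosome 1 at 209614870-209652425 (minus), COL17A1 on chromosome 10 at 104031286-104085880 (minus), ITGA3 on chromosome 17 at 50055968-50090481 (plus), ITGA6 on chromosome 2 at 172427354-172506459 (plus), ITGB4 on chromosome 17 at 75721328-75757818 (plus), DST on chromosome 6 at 56457987-56954830 (minus) and PLEC on chromosome 8 at 143915153-143976734 (minus). LAMA3, DST and PLEC have long and short transcript forms from separate promoters. The tables give 1 value a gene, summed over its transcripts, so epithelial forms cannot be told from the others.

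The tables carry no read counts, so the sequencing depth behind a value is unknown, and 11292 to 14024 genes reached 1 TPM in a library. The guides' effect on the messenger RNA of their targets was uneven: RUVBL1 fell from 154 to 44.4 TPM (group means) in T3M-4 and RUVBL2 from 157 to 45.5, whereas KLF5 was 119.6 in sgRosa and 175 in sgKLF5 libraries of AsPC-1 experiment 1 and CHD4 was 66.8 and 82.7. Messenger RNA level does not measure the protein left after a frameshift. In CFPAC-1, CDK1 was 200.4 TPM in the libraries labelled sgCDK1 and 86.5 in those labelled sgRpa3, against 215 in sgRosa, while RPA3 was 30.3, 31.0 and 37.6, so the levels go against these labels and they are quoted as labels throughout. SUIT-2 sgRosa replicate 1, SUIT-2 sgKLF5 replicate 4 and T3M-4 experiment 1 sgKLF5 replicate 2 stood far from their own groups (root mean square distance 0.914, 0.674 and 1.097 on the log2 scale), and CFPAC-1 sgRosa replicate 2 was nearer to sgKLF5 (0.316) than to the other sgRosa libraries (0.364). Less far, but each the farthest of its group, were AsPC-1 experiment 3 sgRUVBL2 replicate 2 (0.535), BxPC-3 experiment 2 sgRUVBL2 replicate 3 (0.541) and T3M-4 experiment 2 sgRosa replicate 4 (0.496). These were kept where the libraries that stood apart were left out. A further T3M-4 sgRUVBL1 library was left out by the authors. The pancreatic lines, T84 and H1048 had 5 of 5 epithelial markers over 1 TPM, the lowest in H1048 at 1.02. Basal-like markers such as KRT5 were high in T3M-4 and BxPC-3. They were under 1 TPM for 3 of 4 in AsPC-1 and CFPAC-1 and 4 of 4 in SUIT-2. The classical markers GATA6, HNF4A and ELF3 were over 1 TPM in AsPC-1, SUIT-2, CFPAC-1 and T84. In T3M-4 and BxPC-3 HNF4A was under 1 TPM, while ELF3 was 137 and 54.6. The other lines carried their own markers (SOX10 in A375, POU2F3 in H1048, MYOD1 in RH30), with PMEL under 1 TPM in A375. The 3 fibroblast markers were each under 1 TPM on average in AsPC-1, SUIT-2 and T84, COL1A1 reached 22.4 TPM in CFPAC-1 and 11.4 in H1048, and COL3A1 reached 73.5 in RH30; their part in the results was not tested.

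At baseline, in sgRosa or DMSO libraries, COL17A1 averaged over 1 TPM in the pancreatic lines and T84, LAMA3 in these and H1048, and the remaining 6 genes in all 9 lines. COL17A1 was 499 TPM in AsPC-1 (n = 17), 408 in BxPC-3 (n = 6), 288 in SUIT-2 (n = 4), 286 in T3M-4 (n = 9), 83.1 in CFPAC-1 (n = 4) and 64.3 in T84 (n = 4). In H1048, A375 and RH30 it was 0.535, 0.419 and 0.111 TPM (n = 4 each). The ranges of AsPC-1, BxPC-3, SUIT-2 and T3M-4 overlapped each with the next, T3M-4 and CFPAC-1 did not overlap, and the 3 lowest lines were all under 1 TPM. LAMA3 ran from 389 ± 155 (SD) TPM in CFPAC-1 through 175 ± 35.6 in BxPC-3, 142 ± 45.7 in SUIT-2, 106 ± 8.65 in T84, 99.3 ± 41.5 in T3M-4 and 47.1 ± 14.03 in AsPC-1 to 27.5 ± 1.15 in H1048, each range overlapping the next. It was 0.650 in RH30 and 0.520 in A375, apart from the rest.

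LAMB3 was highest in CFPAC-1 (268 ± 88.9 TPM, SD), T3M-4 (237 ± 65.0) and BxPC-3 (236 ± 21.2), which overlapped, followed by SUIT-2 (147 ± 56.5), AsPC-1 (101 ± 67.3) and T84 (96.0 ± 5.36), which also overlapped. RH30 (21.7), A375 (14.9) and H1048 (5.82) came last and did not overlap. ITGB4 had its highest mean in SUIT-2 (625 ± 293) and its lowest in RH30 (2.07 ± 0.318), with 439.6 in AsPC-1, 392.3 in T3M-4, 260.1 in BxPC-3, 191 in CFPAC-1, 112 in T84, 21.2 in H1048 and 16.2 in A375. Neighbours from SUIT-2 down to T84 overlapped.

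ITGA6 stayed above 40 TPM in all 9 lines, from 398 in T3M-4, 325 in BxPC-3, 314 in CFPAC-1 and 307 in SUIT-2 to 48.3 in RH30 and 46.9 in H1048, and ITGA3 ran from 493 in CFPAC-1 to 20.8 in H1048. PLEC did not follow the epithelial lines: A375 (188 ± 11.9) and RH30 (142 ± 6.32) lay among BxPC-3 (198 ± 31.9), T3M-4 (166 ± 64.2) and AsPC-1 (165 ± 32.2), and H1048 was lowest (29.6 ± 1.99). DST ran from 79.9 ± 50.1 in T3M-4 to 10.5 ± 9.21 in SUIT-2, with RH30 at 55.5 ± 1.88. The experiments of a line differed too, AsPC-1 ITGB4 spanning 262 to 747 TPM and LAMB3 41.7 to 257 over its 17 control libraries. Levels across lines come from separately made tables and are given without a test.

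**Figure D1:**
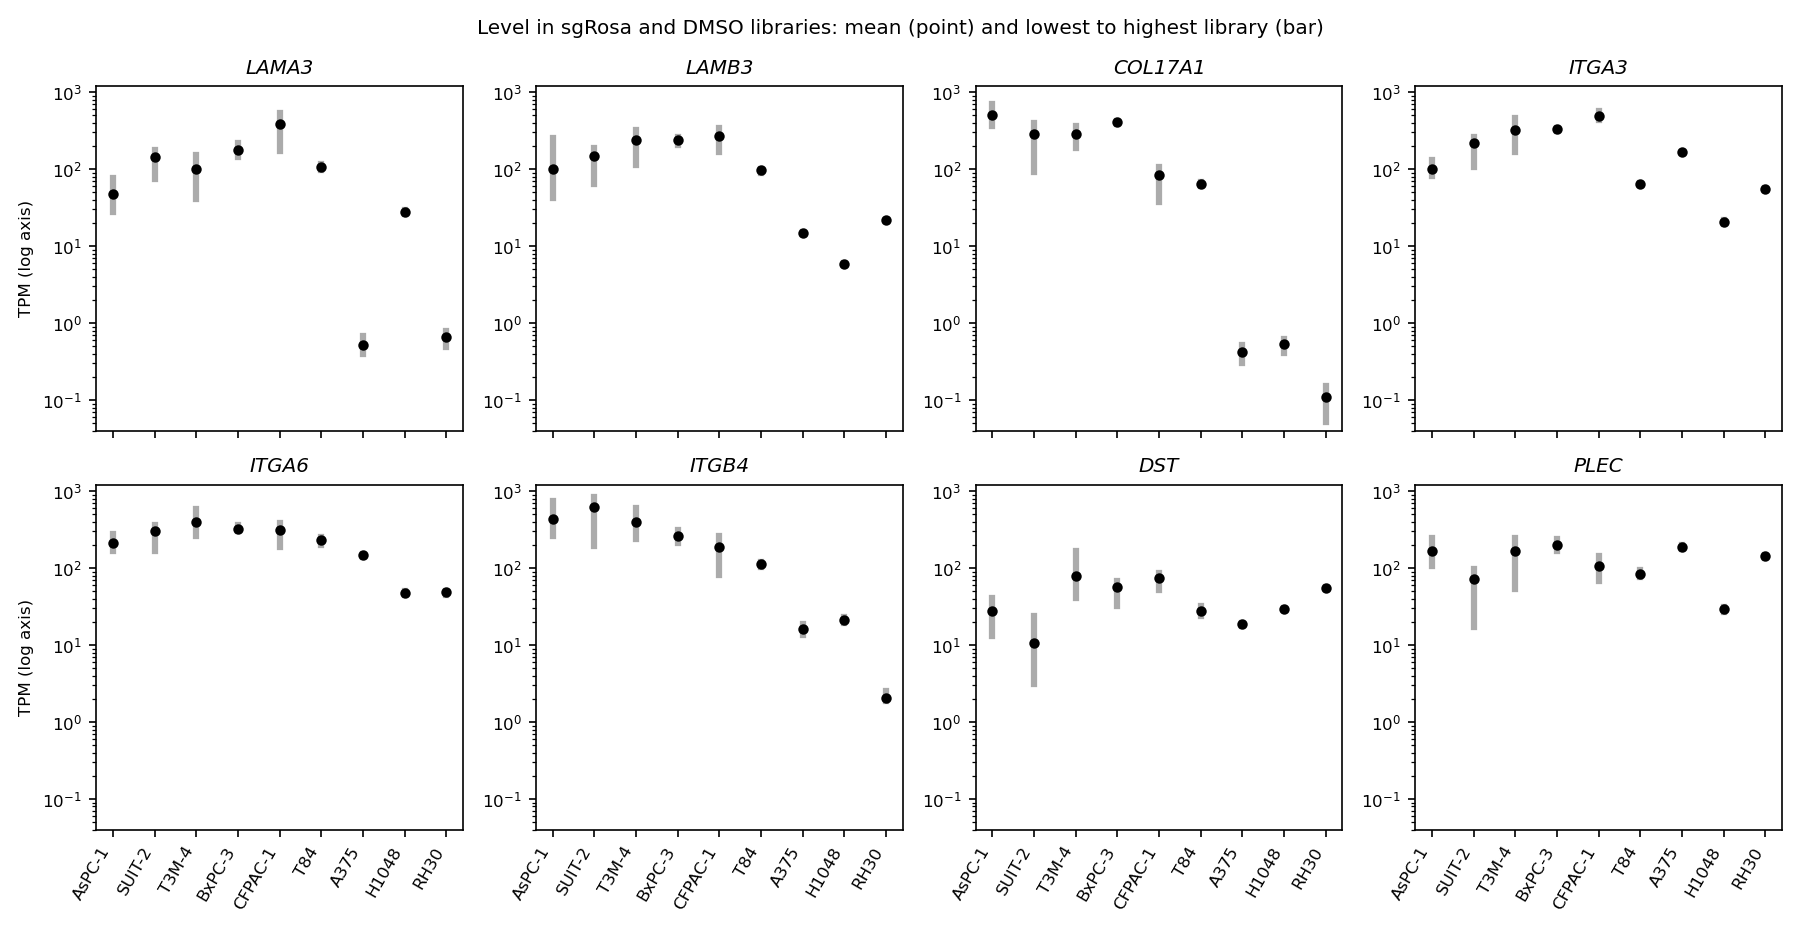
Control level of the 8 genes in each line, in TPM on a log axis; points are means of the sgRosa or DMSO libraries and bars run from the lowest to the highest library. COL17A1 and LAMA3 drop below 1 TPM in A375 and RH30, while the PLEC means stay between 29.6 and 198 TPM in all 9 lines.

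KLF5 knockout lowered LAMA3 and LAMB3, both laminin-binding integrin alpha chains, ITGB4 and COL17A1 in most experiments, while no fall of DST passed the test in any. Over 8 comparisons with sgRosa of the same line and experiment, 41 of 64 tests of the 8 genes were lower and 2 higher at an adjusted p under 0.05 in limma, fitted to log2(TPM + 1) and adjusted over all genes tested. LAMA3 and ITGA6 were lower in 7 of 8, COL17A1, ITGA3 and ITGB4 in 6, LAMB3 in 5 and PLEC in 4. Higher calls made up 11.8% of all gene tests in these comparisons. In bulk libraries a fall in the share of cells that express a gene cannot be told apart from less RNA per cell.

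The number of the 8 genes that were lower is set here beside the share of all tested genes that were lower. It was 7 in AsPC-1 experiment 1 (8.81% of all genes), 7 in AsPC-1 experiment 3 (12.3%), 0 in SUIT-2 (1%; 4 at an unadjusted p under 0.05, against 2.73% of all genes), 2 in T3M-4 experiment 1 (2.46%), 5 in T3M-4 experiment 2 (11.2%), 7 in BxPC-3 experiment 1 (8.1%), 6 in BxPC-3 experiment 2 (13.6%) and 7 in CFPAC-1 (13%). The median log2 change of the 8 genes ran from -1.63 in BxPC-3 experiment 1 to -0.45 in SUIT-2, against medians over all genes of -0.22 to 0.18. With each library rescaled by its median ratio to the others, 50 tests were lower (12.3% of all gene tests) and 2 higher, and the share of higher among all called genes, 20.1 to 74.6% by comparison, became 44.5 to 59.4%. Without the libraries that stood apart, an alternative chosen after seeing the data, 50 tests were lower and 2 higher, with 11.2% of all gene tests lower.

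LAMA3 encodes the laminin alpha3 chain. In BxPC-3 experiment 1 it read 221 and 220.2 TPM in the 2 sgRosa libraries and 65.2, 54.5, 41.2 and 46.4 in the 4 sgKLF5 libraries, a log2 fold change of -2.09, SE 0.17, adjusted p = 2.22e-05. In AsPC-1 experiment 1 the sgRosa libraries had 65.0 and 58.1 TPM and the 6 sgKLF5 libraries had lowest 19.9, median 24.1 and 30.1 as highest (-1.31, SE 0.15, adjusted p = 1.48e-04). Every knockout library lay below every control library in both lines. In T3M-4 experiment 2 the values were 79.7, 92.9, 78.6 and 54.6 in sgRosa and 37.7, 40.5, 40.7 and 34.4 in sgKLF5 (-0.96, SE 0.13, adjusted p = 1.38e-05). The groups were again apart, as they were in 7 of 8 comparisons, the exception being CFPAC-1.

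In CFPAC-1 LAMA3 had 535, 174, 456 and 390.0 TPM in sgRosa and 129, 190.0 and 155 in sgKLF5 (-1.19, SE 0.29, adjusted p = 0.0134). The overlap came from sgRosa replicate 2, the library nearer to the knockout group, and the call was lost without sgRosa replicate 1 or sgKLF5 replicate 1. In SUIT-2 the controls were 75.3, 179, 157 and 157 and the knockouts 71.0, 69.0, 65.6 and 54.3, which did not overlap but missed the threshold (-1.05, SE 0.26, adjusted p = 0.0567).

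LAMB3, the beta3 chain, was lower in AsPC-1, BxPC-3 and CFPAC-1 but close to control in T3M-4 and SUIT-2. In AsPC-1 experiment 3 it went from 75.8, 83.2, 78.5 and 87.5 TPM to 35.6, 52.8, 52.1 and 42.8 (-0.83, SE 0.15, adjusted p = 2.17e-04), with no overlap. In BxPC-3 experiment 1 it went from 234 and 237 to 106, 93.7, 91.6 and 98.7 (-1.26, SE 0.10, adjusted p = 2.44e-05) and in CFPAC-1 from 341, 167, 344 and 219 to 141, 142 and 139 (-0.86, SE 0.18, adjusted p = 0.00691). The groups were apart in both, narrowly in CFPAC-1. T3M-4 experiment 2 had 252, 265, 281 and 159 in sgRosa and 252, 254, 239 and 239 in sgKLF5 (0.073, SE 0.14, adjusted p = 0.723), the knockout values lying inside the control range. The low end of that range was a single library, at 159 TPM. In T3M-4 experiment 1 the sgKLF5 libraries (176 to 256 TPM) lay just below the sgRosa libraries (260 and 266), without a call.

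ITGA6, the alpha6 chain, had its largest change in T3M-4. In T3M-4 experiment 1 it had 553 and 581 TPM in sgRosa and 73.7, 25.6, 103 and 115 in sgKLF5 (-3.02, SE 0.54, adjusted p = 0.0183), and in experiment 2 of the same line 407, 409.6, 394 and 347 and 180.2, 203, 202 and 183 (-1.02, SE 0.074, adjusted p = 6.57e-09). Both groups were apart in both experiments, but the call of experiment 1, with 2 controls, was lost without either sgRosa library or without sgKLF5 replicate 1, and without sgKLF5 replicate 2, which stood apart, the change was -2.56. In BxPC-3 experiment 1 the values were 313 and 305 and 104, 85.5, 58.7 and 65.7 (-1.999, SE 0.21, adjusted p = 1.42e-04).

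ITGB4, the signalling beta chain of the hemidesmosome integrin, had its largest called falls in BxPC-3 experiment 1, AsPC-1 experiment 3 and CFPAC-1. AsPC-1 experiment 3 had 677, 747, 635 and 598 TPM in sgRosa and 122, 243, 284 and 187 in sgKLF5 (-1.73, SE 0.20, adjusted p = 1.93e-06). BxPC-3 experiment 1 had 213 and 224 and 59.4, 52.3, 41.4 and 54.1 (-2.07, SE 0.13, adjusted p = 4.87e-06). CFPAC-1 had 253, 81.9, 263 and 165 and 53.3, 47.8 and 54.2 (-1.73, SE 0.27, adjusted p = 0.00338). No knockout library reached the lowest control in any of the 3.

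SUIT-2 ITGB4 was 195, 685, 794 and 825 TPM in sgRosa and 138, 88.5, 191 and 218 in sgKLF5 (-1.85, SE 0.47, adjusted p = 0.0640), so that sgRosa replicate 1 alone lay among the knockouts. Leaving that library out, or rescaling the libraries, LAMA3, COL17A1, ITGA6 and ITGB4 were all lower in SUIT-2, and leaving out sgKLF5 replicate 4 as well added ITGA3. The same holds in T3M-4 experiment 1 for sgKLF5 replicate 2, the lowest library for each of the 8 genes there: without it COL17A1, ITGA3, ITGB4 and DST (-1.11) were lower too.

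ITGA3, the alpha3 chain, had smaller changes. In BxPC-3 experiment 2 it went from 312, 326, 344 and 337 to 187, 217, 228 and 228 TPM (-0.62, SE 0.11, adjusted p = 4.40e-04) and in CFPAC-1 from 532, 431, 565 and 442 to 342, 347 and 345 (-0.50, SE 0.11, adjusted p = 0.00999), apart in both. COL17A1, the transmembrane collagen, had 419.6 and 419 TPM in sgRosa and 72.7, 62.2, 46.7 and 55.2 in sgKLF5 of BxPC-3 experiment 1 (-2.82, SE 0.14, adjusted p = 1.64e-06). In CFPAC-1 it had 104, 37.4, 107 and 84.04 and 25.6, 29.7 and 29.2 (-1.42, SE 0.25, adjusted p = 0.00396), sgRosa replicate 2 again being the control nearest to the knockouts.

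Of the plakins, PLEC was lower in AsPC-1 experiments 1 and 3, BxPC-3 experiment 1 and CFPAC-1. In BxPC-3 experiment 2 it had no call, although the groups were apart, with 168 to 182 TPM in sgRosa and 107 to 123 in sgKLF5. In CFPAC-1 it went from 138, 74.0, 145 and 67.2 to 41.3, 43.8 and 43.3 TPM (-1.20, SE 0.21, adjusted p = 0.00396). In T3M-4 experiment 2 it was 164, 214, 216 and 53.6 and 163, 171, 164 and 141 (0.16, SE 0.31, adjusted p = 0.723), the controls spreading more than the groups differed. The AsPC-1 calls were each lost without any of several single libraries.

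DST, the other plakin, went the opposite way where it was called. In BxPC-3 experiment 2 it had 57.2, 54.4, 67.7 and 32.3 TPM in sgRosa and 81.7, 94.0, 97.9 and 66.4 in sgKLF5 (0.71, SE 0.24, adjusted p = 0.0284), and in AsPC-1 experiment 3 14.9, 27.8, 38.7 and 13.3 and 38.2, 33.2, 52.6 and 42.9 (0.90, SE 0.31, adjusted p = 0.0367). The groups overlapped in both lines, and each call was lost without any of several single libraries. In T3M-4 experiment 1 DST had 164 and 168 and 56.2, 20.5, 83.5 and 93.6 (-1.57, SE 0.54, adjusted p = 0.136).

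**Figure D2:**
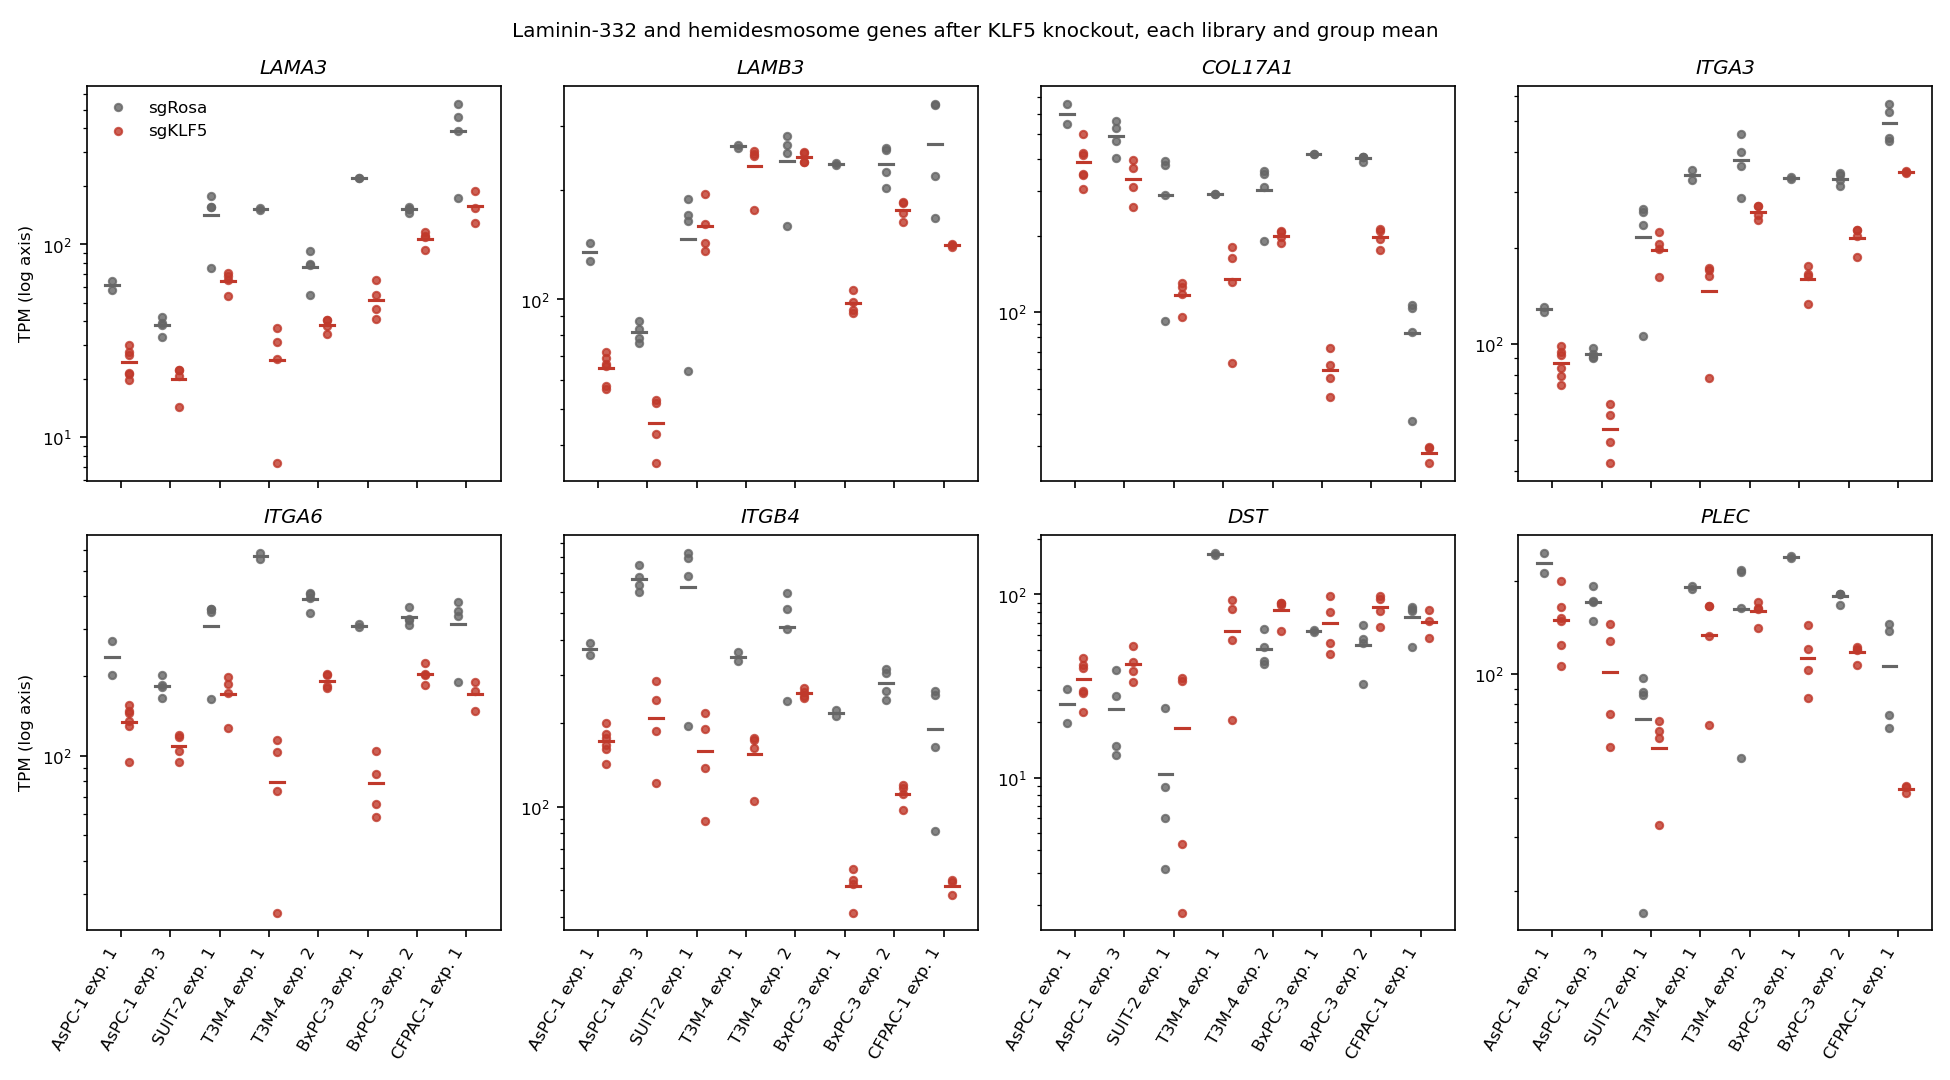
Level of each of the 8 genes in every sgRosa and sgKLF5 library, in TPM on a log axis, by line and experiment, with bars at group means. In BxPC-3 experiment 1 COL17A1 drops from 419 to 59.2 TPM, in AsPC-1 experiment 3 ITGB4 drops from 664 to 209 TPM, and the DST groups overlap in all but T3M-4 experiment 1.

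Whether the effect differed between experiments of a line was tested as an interaction. In BxPC-3 it was weaker in experiment 2 than in experiment 1 for 6 genes, 19.8% of all genes differing in either direction: the log2 difference was 1.79, SE 0.16, adjusted p = 1.62e-06 for COL17A1, 1.59 for LAMA3, 1.29 for ITGA6, 0.85 for LAMB3, 0.74 for ITGB4 and 0.44 for ITGA3. The ITGA3 difference was lost without either sgRosa library of experiment 1. In AsPC-1 (4.6% of all genes) and T3M-4 (1.67%) none of the 8 differed at the adjusted threshold in limma, although ITGA6 and DST in T3M-4 came to 2.01 (adjusted p = 0.0680) and 2.29 (adjusted p = 0.0567). When the libraries were rescaled, LAMA3 (1.42), ITGA6 (1.604) and DST (1.89) passed in T3M-4, as all of them did without sgKLF5 replicate 2 or 4 of experiment 1. At an unadjusted p under 0.05, 5 of the 16 tests in AsPC-1 and T3M-4 differed, against 20.9% of all gene tests.

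The effect in the basal-like lines T3M-4 and BxPC-3 was also set against that in the classical lines AsPC-1 and SUIT-2, over experiment 1 of each. The fall was larger in the basal-like lines for ITGA6 (-1.71, SE 0.37, adjusted p = 0.00270), LAMA3 (-1.25, adjusted p = 0.0245), COL17A1 (-1.14, 0.0475) and ITGA3 (-0.86, 0.0354), with 12.7% of all genes differing in either direction. ITGB4 (-0.15, SE 0.37, adjusted p = 0.790) was not told apart between the classes. The ITGA6 call held with any single library left out, but the other 3 were each lost without several, and 1 of the 4 calls was left without either sgRosa library of BxPC-3 or T3M-4 or without AsPC-1 sgRosa replicate 2. A class of 2 lines cannot be told apart from the lines themselves. The later experiments of AsPC-1, T3M-4 and BxPC-3 were left out of this contrast. There, in this order of lines (group means), ITGA3 went from 92.7 to 53.9, 376 to 260 and 330 to 215 TPM, falling most in AsPC-1. LAMA3 went from 38.1 to 20.0, 76.5 to 38.3 and 152 to 107, falling more in AsPC-1 than in BxPC-3. ITGA6 still fell most in T3M-4 (390 to 192) and COL17A1 in BxPC-3 (403 to 198). These differences were not tested.

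After RUVBL1 knockout the laminin chains went different ways: LAMB3 rose in every line but CFPAC-1, whereas LAMA3, ITGA6 and ITGB4 fell in part of the lines. Over 5 comparisons 13 of 40 tests were lower and 7 higher. By line, 4 genes were lower in AsPC-1 experiment 2 (25.8% of all genes), 2 in AsPC-1 experiment 3 (15.2%), 3 in T3M-4 (14.6%), 1 in BxPC-3 (7.67%) and 3 in CFPAC-1 (37.3%). Higher were 1 (30% of all genes), 3 (36.6%), 2 (45.9%), 1 (8.29%) and 0 (6.54%), in the same order. In T3M-4 the median gene rose by 0.25 on the log2 scale and in CFPAC-1 it fell by 0.20, so changes of that size in the 8 genes equal the shift of all genes. Rescaled, 18 tests were lower (22.8% of all gene tests) and 6 higher (21.4%), and higher calls went from 14.9 to 75.9% of all called genes to 46.9 to 53.1%.

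LAMB3 had 71.6, 66.9, 68.2 and 72.9 TPM in sgRosa and 162, 172, 189.5 and 202 in sgRUVBL1 of AsPC-1 experiment 2 (1.36, SE 0.09, adjusted p = 1.00e-08). In T3M-4 it had 252, 265, 281 and 159 and 483, 536 and 509 (1.12, SE 0.15, adjusted p = 1.01e-05). In BxPC-3 it had 203, 224, 257 and 259.8 and 389, 369, 276 and 322 (0.52, SE 0.14, adjusted p = 0.0160), the call being lost without sgRosa replicate 1 or sgRUVBL1 replicate 1 or 2. Every knockout library lay above every control in these comparisons and in AsPC-1 experiment 3 (81.3 to 152 TPM, group means). In CFPAC-1 the knockouts, 269.7, 249, 246 and 229.9, lay inside the control range (-0.043, SE 0.17, adjusted p = 0.849).

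LAMA3 went the other way. It had 38.9, 38.1, 42.1 and 33.3 TPM in sgRosa and 26.0, 32.1, 31.7 and 26.8 in sgRUVBL1 of AsPC-1 experiment 3 (-0.38, SE 0.12, adjusted p = 0.0116), with no overlap, and 79.7, 92.9, 78.6 and 54.6 and 55.6, 55.3 and 57.3 in T3M-4 (-0.42, SE 0.14, adjusted p = 0.0153), where the lowest control lay just below the knockouts and the call was lost without sgRosa replicate 2.

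ITGB4 fell in AsPC-1 in both experiments. Experiment 3 had 677, 747, 635 and 598 TPM in sgRosa and 299.8, 285, 409.8 and 295 in sgRUVBL1 (-1.05, SE 0.20, adjusted p = 2.83e-04), and experiment 2 had 288, 262, 290.0 and 298 and 154, 159, 166 and 175 (-0.80, SE 0.13, adjusted p = 7.64e-05). Neither overlapped. CFPAC-1 ITGB4 fell from 191 to 105 TPM (group means), a call lost without any of 3 single libraries and under rescaling (-0.52), and T3M-4 showed -0.079, SE 0.22, adjusted p = 0.771.

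ITGA6 was lower in AsPC-1 experiment 2 (-0.47, SE 0.10, adjusted p = 6.44e-04), BxPC-3 (-0.28) and T3M-4 (-0.24), the last 2 calls depending on single libraries, and ITGA3 only in CFPAC-1 among the 5 comparisons (493 to 330.3 TPM, -0.58, SE 0.11, adjusted p = 5.65e-04). COL17A1 was lower in AsPC-1 experiment 2, from 456, 435, 492 and 505 to 313, 361, 344 and 364 TPM (-0.45, SE 0.12, adjusted p = 0.00446), and not in experiment 3 (0.058, SE 0.12, adjusted p = 0.704). The plakins had no common direction. PLEC rose in T3M-4 from 164, 214, 216 and 53.6 to 251, 274 and 275 TPM (0.90, SE 0.34, adjusted p = 0.0298) and fell in CFPAC-1 from 138, 74.0, 145 and 67.2 to 35.0, 51.6, 42.1 and 45.0 (-1.20, SE 0.19, adjusted p = 2.65e-04). The T3M-4 rise of PLEC was lost without any of the 3 sgRUVBL1 libraries and when the libraries were rescaled (log2 fold change 0.61, adjusted p = 0.0781). DST rose in AsPC-1 experiment 3 (1.07, SE 0.31, adjusted p = 0.00772) and fell in T3M-4 (-0.79, SE 0.31, adjusted p = 0.0351). The AsPC-1 groups overlapped, sgRUVBL1 libraries spanning 22.8 to 64.7 TPM and sgRosa libraries 13.3 to 38.7. In AsPC-1 experiment 2 DST had no call, at 25.2 TPM in sgRosa and 21.2 in sgRUVBL1 (group means).

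RUVBL2 encodes the partner ATPase. Its knockout lowered 6 of 32 tests (10.3% of all gene tests) and raised 3 (19.8%). LAMB3 was higher in AsPC-1, 149.8, 118, 163 and 159 TPM against the control values above (0.84, SE 0.15, adjusted p = 1.85e-04), and in T3M-4, 364, 491, 496 and 426 (0.91, SE 0.14, adjusted p = 4.03e-05), above every control in both lines. ITGB4 was lower in AsPC-1 (664 to 422 TPM, -0.68, SE 0.20, adjusted p = 0.0105) and BxPC-3 (-0.66, SE 0.19, adjusted p = 0.0359), where 4 single libraries each decided the call. LAMA3 (76.5 to 54.0 TPM, group means) and ITGA6 (390 to 323) were lower in T3M-4, with overlapping groups. COL17A1 (403 to 300) was lower in BxPC-3, with the groups apart. DST again rose in AsPC-1, 14.9, 27.8, 38.7 and 13.3 against 46.9, 59.99, 55.0 and 55.8 (1.29, SE 0.31, adjusted p = 0.00280), and fell in T3M-4 (-0.88, SE 0.29, adjusted p = 0.0155), the latter lost without sgRUVBL2 replicate 3 or 4. In CFPAC-1 none of the 8 genes passed the test in limma, with 1 lower at an unadjusted p under 0.05 (20.4% of all genes). The KLF5, RUVBL1 and RUVBL2 comparisons of an experiment share their sgRosa libraries, so their likeness is not independent.

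Compared directly in the same experiment, sgRUVBL1 libraries had more of these transcripts than sgKLF5 libraries: 23 of 32 tests were higher and 2 lower, with 24.6% of all gene tests higher. LAMB3, COL17A1, ITGA6 and ITGB4 were higher in 4 of 4 lines. The LAMB3 log2 difference was 1.70, SE 0.15, adjusted p = 2.03e-08 in AsPC-1, where the libraries had 35.6, 52.8, 52.1 and 42.8 TPM with sgKLF5 and 184, 182, 129.9 and 114 with sgRUVBL1. It was 1.05 in T3M-4, 0.93 in BxPC-3 and 0.82 in CFPAC-1. DST was the gene that went lower, in T3M-4 (-1.502, SE 0.31, adjusted p = 7.47e-04) and in BxPC-3 (-0.61, SE 0.24, adjusted p = 0.0466), the latter call resting on each of several single libraries.

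In the libraries labelled sgCDK1 and sgRpa3 most of the 8 genes had no call. With sgCDK1, 0 of 32 tests were lower (3.08% of all gene tests) and 1 higher (6.78%), and at an unadjusted p under 0.05 in limma 2 were lower (8.01%) and 5 higher (15.8%). The higher gene was ITGA6 in T3M-4, 476 and 479.8 TPM against 407, 409.6, 394 and 347 in sgRosa (0.30, SE 0.09, adjusted p = 0.0325), lost without either sgCDK1 library or sgRosa replicate 4 and when rescaled (0.13). With sgRpa3, 1 of 48 tests was lower (3.57%) and 2 higher (6.25%). LAMB3 rose in AsPC-1 to 244 and 220.2 TPM, above all 4 controls (1.503, SE 0.18, adjusted p = 9.61e-05), and to 482 and 451 in the CFPAC-1 libraries labelled sgRpa3 (0.86, SE 0.20, adjusted p = 0.0128), lost without either of these libraries. LAMA3 fell in T3M-4 experiment 2, 49.2 and 47.8 (-0.62, SE 0.16, adjusted p = 0.00902). These groups hold 2 libraries each, which limits what the test can call. Of all genes, 0 of 12748 were called in CFPAC-1 with sgCDK1 and 0 of 12636 in T3M-4 experiment 1 with sgRpa3. In BxPC-3 experiment 1 with sgRpa3, 2 of 12398 were lower and 36 higher. The absence of calls for the 8 genes in these comparisons is uninformative.

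Set directly against sgCDK1 libraries, sgKLF5 libraries were lower in 22 of 32 tests and higher in 0, with 15.7% of all gene tests lower. At an unadjusted p under 0.05 in limma, 24 were lower (21.6%) and 1 higher (16.6%). LAMA3, COL17A1, ITGA6 and ITGB4 were lower in 4 of 4 lines, every sgKLF5 library lying below every sgCDK1 library for each. For ITGA6 the log2 difference was -1.31, SE 0.09, adjusted p = 8.41e-09 in T3M-4, and for ITGB4 it was -1.56, SE 0.25, adjusted p = 6.84e-05 in AsPC-1. The CFPAC-1 values, among them ITGB4 (-2.48) and PLEC (-1.82), rest on the libraries labelled sgCDK1, whose CDK1 level did not match the label. Without them and the other libraries that stood apart, no CFPAC-1 comparison was left, and 15 tests of the remaining lines were called. With every library kept, 4 of 8 genes were called for BxPC-3, 5 of 8 for T3M-4 and 6 of 8 for AsPC-1. The 7 calls of CFPAC-1 were thus the ones lost.

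**Figure D3:**
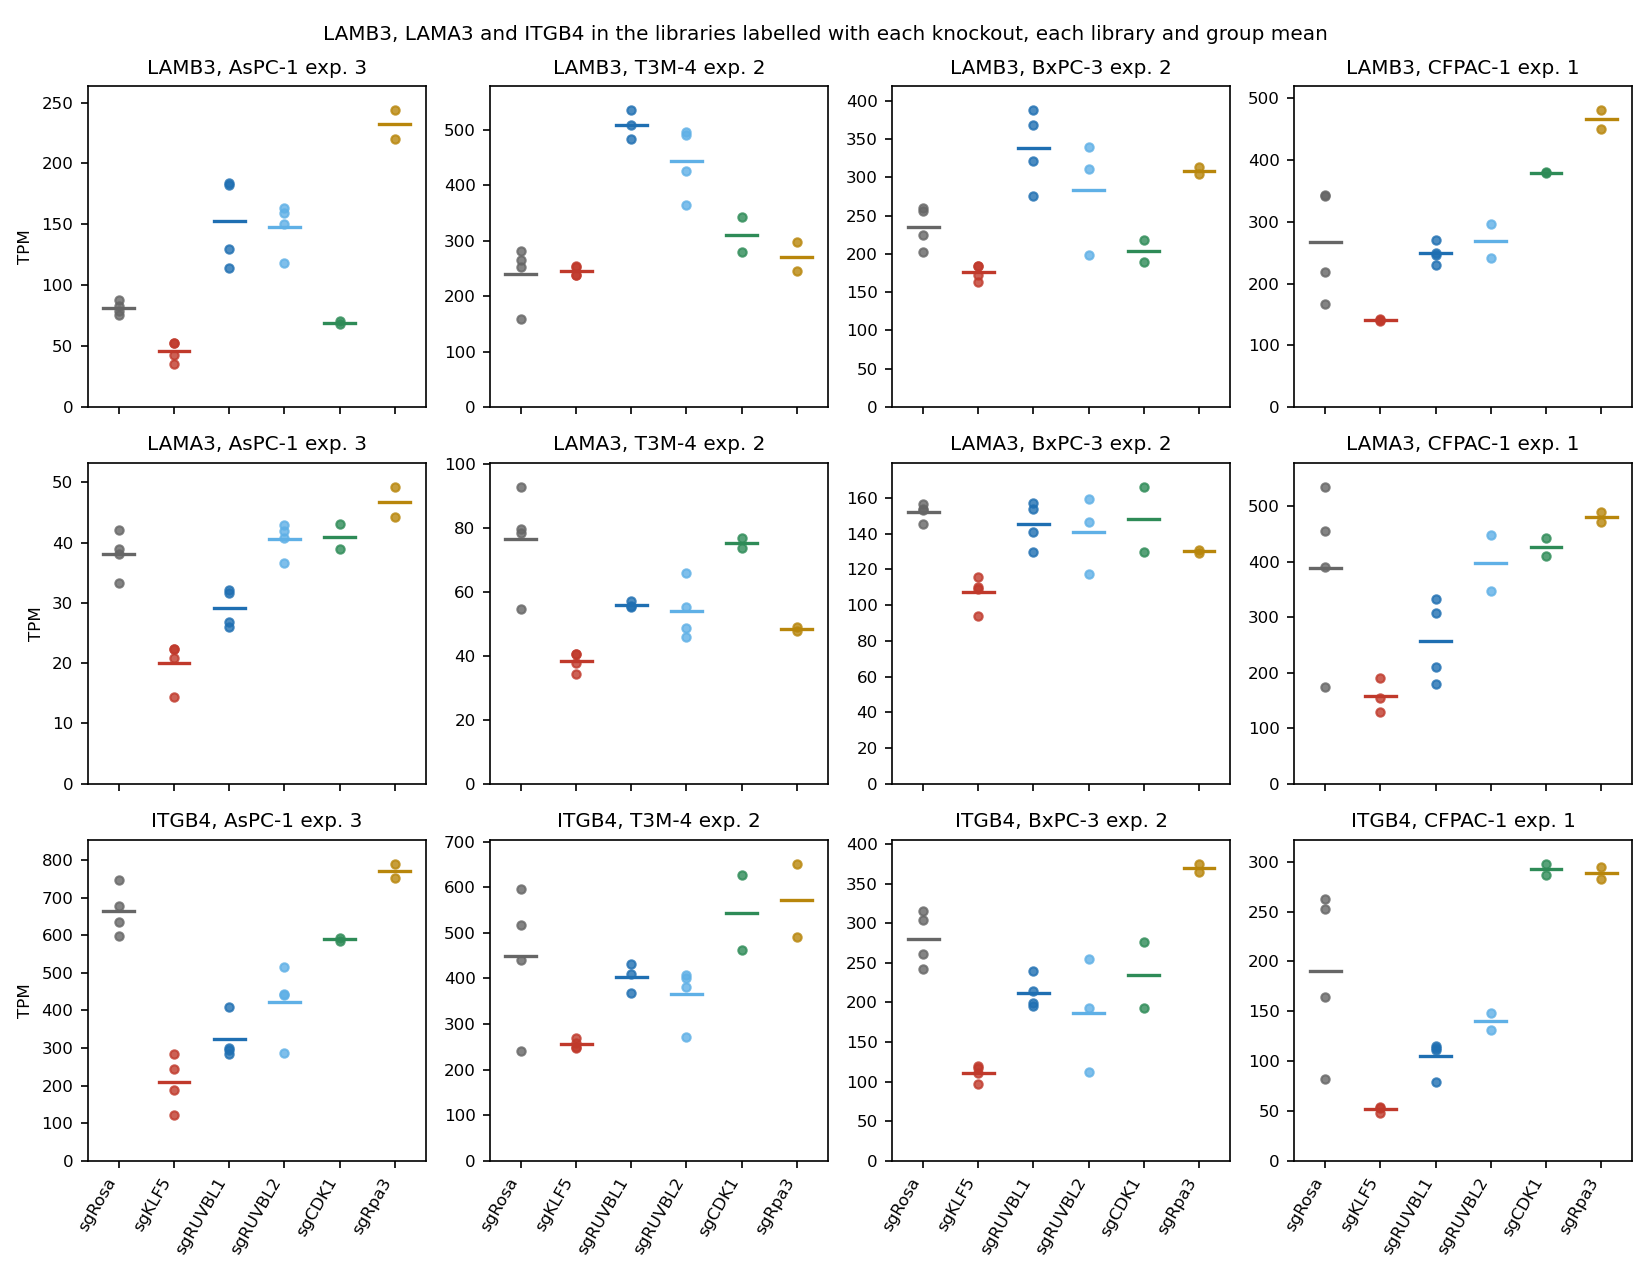
LAMB3, LAMA3 and ITGB4 in each library of the experiments that held every knockout, in TPM, with bars at group means and each panel on its own axis from 0; CFPAC-1 groups are named by label. In AsPC-1 LAMB3 stands at 45.8 TPM with sgKLF5, 81.3 with sgRosa, 152 with sgRUVBL1 and 232 with sgRpa3 (means), while ITGB4 is lowest with sgKLF5 in all 4 lines.

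CHD4 knockout in AsPC-1 raised LAMA3 and LAMB3. LAMA3 had 33.4, 34.4, 33.3 and 28.1 TPM in sgRosa and 92.3, 75.2, 85.5 and 81.9 in sgCHD4 (1.35, SE 0.078, adjusted p = 8.83e-08). LAMB3 had 41.7, 42.1, 47.1 and 42.6 and 140.3, 134, 123 and 127 (1.57, SE 0.058, adjusted p = 2.66e-09). All sgCHD4 libraries lay far above all controls. COL17A1 (389 to 308 TPM, group means), ITGA3 (88.6 to 70.8) and ITGB4 (379.8 to 306) were lower, with log2 fold changes of -0.34, -0.32 and -0.32. Higher were 23.3% of all genes and lower 26.7%. With sgSERPINB5, 0 of 8 genes were called (0.0343% of all genes in either direction), and at an unadjusted p under 0.05 in limma 2 were lower (3.71%). SERPINB5 itself went from 182 to 71.3 TPM.

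In empty-vector cells CB-6644 lowered ITGB4 in both lines tested. AsPC-1 had 193, 202 and 226 TPM in CB-6644 against 412, 583 and 419 in the DMSO libraries of the empty-vector, A62T and dF109 cells, which the test pooled (-1.17, SE 0.13, adjusted p = 1.00e-05). T3M-4 had 258, 195 and 126 against 297, 418 and 324 (-0.88, SE 0.21, adjusted p = 0.00703). The treated libraries lay below every DMSO library in both lines, but with only the compared groups in the fit the T3M-4 call was lost (adjusted p = 0.0627). In AsPC-1 2 genes were lower (17.2% of all genes) and 4 higher (47.2%). In T3M-4 1 was lower (15.2%) and 0 higher (19.1%).

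Beside ITGB4, ITGA6 was lower in AsPC-1 (-0.23, SE 0.075, adjusted p = 0.0173; 0.0592 with only the compared groups in the fit), and LAMB3 (224 to 299.8 TPM, 0.45, SE 0.14, adjusted p = 0.0123), ITGA3 (0.54), PLEC (0.89) and DST (0.20) were higher. The median gene rose by 0.19 here, about as much as DST, whose sign turned when the libraries were rescaled (-0.065). Rescaling also ended the LAMB3 call (0.18, adjusted p = 0.151) and brought LAMA3 (-0.48) and COL17A1 (-0.35) past the threshold, and in T3M-4 LAMA3 (-0.94) and LAMB3 (-0.68). Over both lines, 7 of 16 tests were then lower (30.6% of all gene tests) and 2 higher (20.7%). In T3M-4 the single DMSO libraries of the vectors differed, which cannot be told apart from a difference between libraries. LAMA3 in DMSO was 40.3 TPM with the empty vector, 139.8 with A62T and 102 with dF109, and LAMB3 was 112, 322 and 214. Against its own single DMSO library, empty-vector LAMA3 in CB-6644 (49.4, 45.1 and 43.6) was not lower, while against the pooled DMSO it read -0.84, SE 0.32, adjusted p = 0.0607.

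In cells with a resistance variant, CB-6644 lowered 1 of 32 tests (3.53% of all gene tests) and raised 9 (30.4%). ITGB4 was called in none of the 4 comparisons, its log2 fold changes being 0.36 and 0.076 in AsPC-1 and 0.40 and 0.055 in T3M-4 for A62T and dF109. The lower call was LAMA3 in dF109 AsPC-1 (-0.35, SE 0.10, adjusted p = 0.0232), whose own DMSO library was 52.1 TPM against 50.5, 49.2 and 52.1 in CB-6644. Of the higher calls, 5 came from A62T T3M-4, where the median gene rose by 0.33 and none of the 5 passed after rescaling (ITGA3 0.31, adjusted p = 0.0733).

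With all cells in CB-6644, variant cells had more ITGB4 than empty-vector cells in 4 of 4 comparisons. AsPC-1 had 193, 202 and 226 TPM with the empty vector, 641, 540.4 and 610.4 with A62T (1.53, SE 0.13, adjusted p = 2.53e-06) and 502, 554 and 424 with dF109 (1.25, SE 0.13, adjusted p = 1.50e-05). T3M-4 had 258, 195 and 126, 478, 429.7 and 451 (1.28, SE 0.21, adjusted p = 9.04e-04) and 356, 379.7 and 334 (0.94, SE 0.21, adjusted p = 0.00868). No variant library overlapped the empty-vector libraries. Higher were 3 genes for A62T (18.9% of all genes) and 1 for dF109 (20.9%) in AsPC-1, and 8 (41.4%) and 7 (29.8%) in T3M-4. Lower were 2 of 32 tests (17.7% of all gene tests), LAMB3 and ITGA3 of dF109 AsPC-1. The variant and empty-vector cells share 1 empty-vector group within a line.

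Subtracting each vector's own DMSO library, an alternative chosen after seeing the data, left no call in T3M-4: 8 tests were higher and 0 lower in place of 19 and 2, the 8 all in AsPC-1, with 7.26% of all gene tests higher. In AsPC-1 ITGB4 differed by 1.03, SE 0.20, adjusted p = 0.00639 for A62T and 1.22, SE 0.20, adjusted p = 0.00315 for dF109. ITGA6 differed by 0.31, SE 0.07, adjusted p = 0.0139 and 0.39, SE 0.07, adjusted p = 0.00499, and LAMA3 by 0.36, SE 0.077, adjusted p = 0.0114 and 0.43, SE 0.077, adjusted p = 0.00506. COL17A1 and DST were called for dF109. In T3M-4 LAMA3 came to -0.34, SE 0.12, adjusted p = 0.180 for A62T and ITGB4 to 0.79, SE 0.42, adjusted p = 0.365. With 1 DMSO library a vector, its spread is taken from the other groups.

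**Figure D4:**
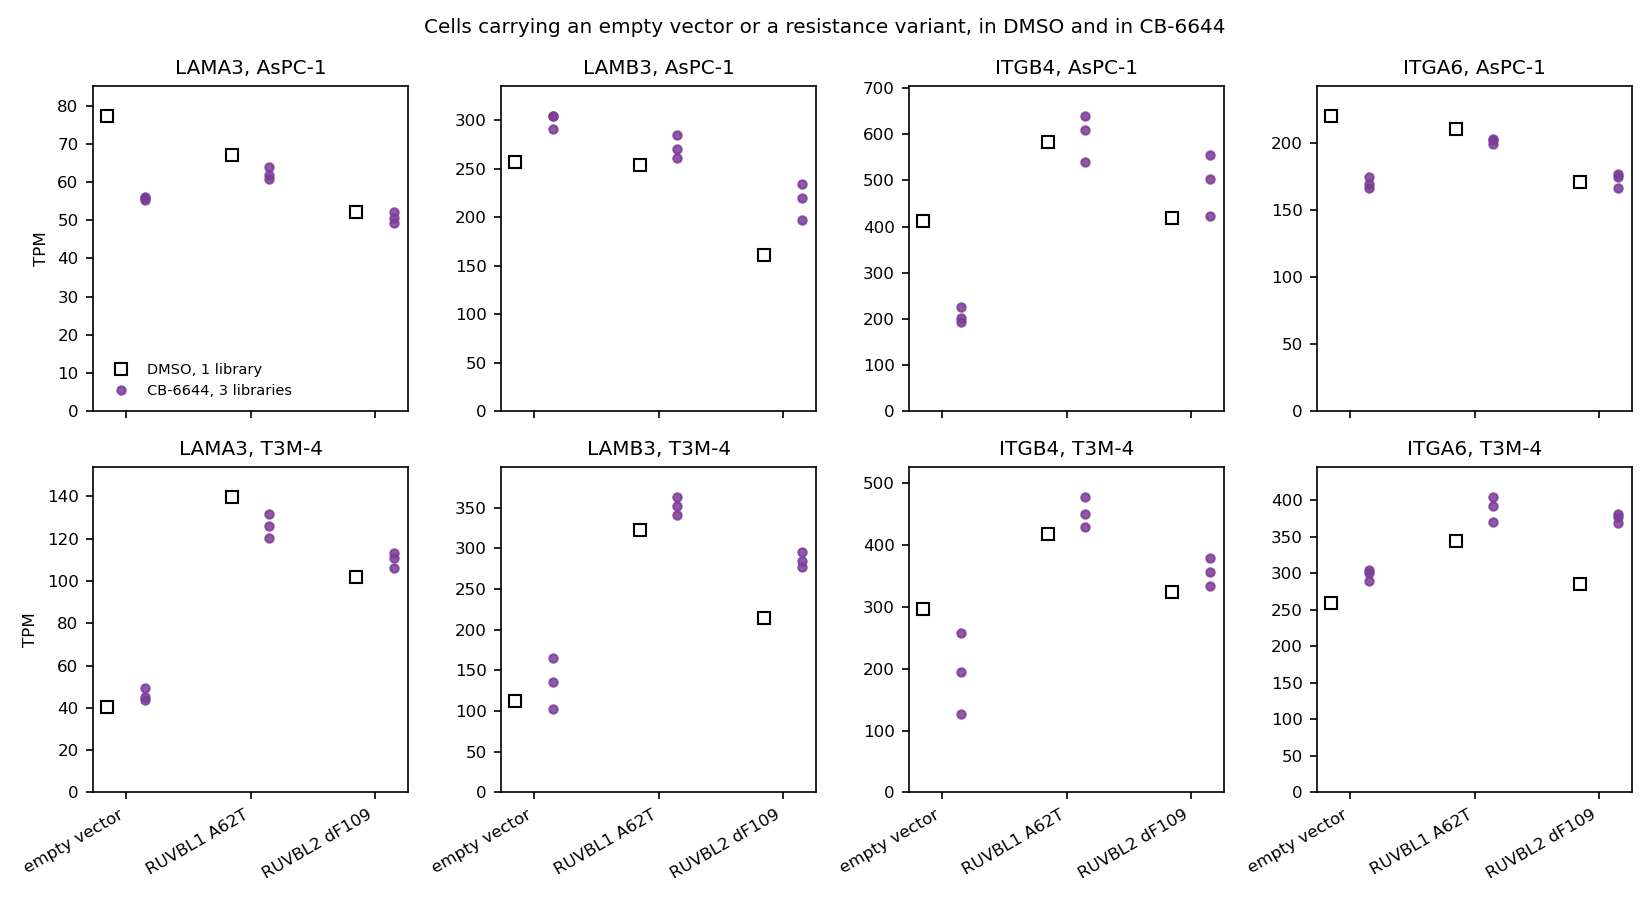
LAMA3, LAMB3, ITGB4 and ITGA6 by vector in AsPC-1 and T3M-4, in TPM from 0; open squares are the single DMSO libraries and points the 3 CB-6644 libraries. Empty-vector ITGB4 in AsPC-1 lies between 193 and 226 TPM in CB-6644 against 412 in DMSO, and in T3M-4 LAMA3 is at 40.3 TPM with the empty vector already in DMSO.

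Outside the pancreas CB-6644 moved the genes in different directions by line: 13 of 28 tests were lower and 11 higher. The median gene rose in all 4 lines, and after rescaling 17 tests were lower (41.2% of all gene tests) and 6 higher (34.6%). In T84 2 were lower (24.2% of all genes) and 4 higher (47.2%), in A375 3 (29.7%) and 2 (51.5%), in H1048 3 (24%) and 4 (53.9%), and in RH30 5 (27.3%) and 1 (50.4%). COL17A1 in A375, H1048 and RH30 and LAMA3 in RH30 were below the filter of 1 TPM and were not tested. ITGA6 was lower in 4 of 4 lines, from -0.48 in A375, -0.31 in RH30 and -0.20 in T84 to -0.12 in H1048, the last lost without any of 4 single libraries.

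ITGB4 in A375 had 13.6, 14.3, 18.5 and 18.3 TPM in DMSO and 3.07, 3.12, 3.56 and 3.04 in CB-6644 (-2.02, SE 0.10, adjusted p = 5.71e-09). In T84 it had 110.4, 120.2, 113 and 104 and 89.4, 90.6, 97.2 and 79.5 (-0.32, SE 0.059, adjusted p = 1.57e-04), and in H1048 it was higher, 22.0, 23.1, 19.1 and 20.4 against 24.3, 24.9, 27.0 and 24.0 (0.24, SE 0.061, adjusted p = 0.00367). None of the 3 lines overlapped between groups, but the H1048 rise was lost under rescaling (log2 fold change 0.03, adjusted p = 0.665). RH30 ITGB4 fell at low level, 2.07 to 1.28 TPM.

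LAMB3 rose in T84, 99.2, 102, 92.8 and 90.3 against 138, 138, 147 and 127 TPM (0.51, SE 0.051, adjusted p = 2.89e-07), and fell in RH30, 21.2, 22.0, 21.7 and 22.0 against 10.4, 10.4, 9.71 and 10.7 (-1.01, SE 0.043, adjusted p = 6.65e-10). It also fell in A375 (-0.29) and H1048 (-0.25). LAMA3 did not move with LAMB3 in H1048, where it rose from 27.6, 26.2, 27.3 and 29.0 to 41.6, 45.2, 41.4 and 42.9 TPM (0.62, SE 0.043, adjusted p = 7.54e-08). A375 LAMA3 went from 0.670, 0.399, 0.544 and 0.4662 to 1.78, 1.27, 1.96 and 1.66 TPM (0.81, SE 0.10, adjusted p = 2.31e-05), a rise understated by the added 1 TPM.

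ITGA3 fell in RH30, 55.4, 56.5, 53.0 and 54.5 against 31.5, 30.7, 29.9 and 29.8 TPM (-0.83, SE 0.034, adjusted p = 4.28e-10), and was higher in T84 (0.22) and H1048 (0.25), both lost under rescaling. DST rose in T84 from 27.5 to 41.3 TPM (0.58, SE 0.081, adjusted p = 1.13e-05) and in RH30 (0.27) and fell in H1048 (-0.35). PLEC rose most in H1048, 29.6 to 42.2 TPM (0.50, SE 0.055, adjusted p = 4.08e-06), and fell in RH30 (-0.26).

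**Figure D5:**
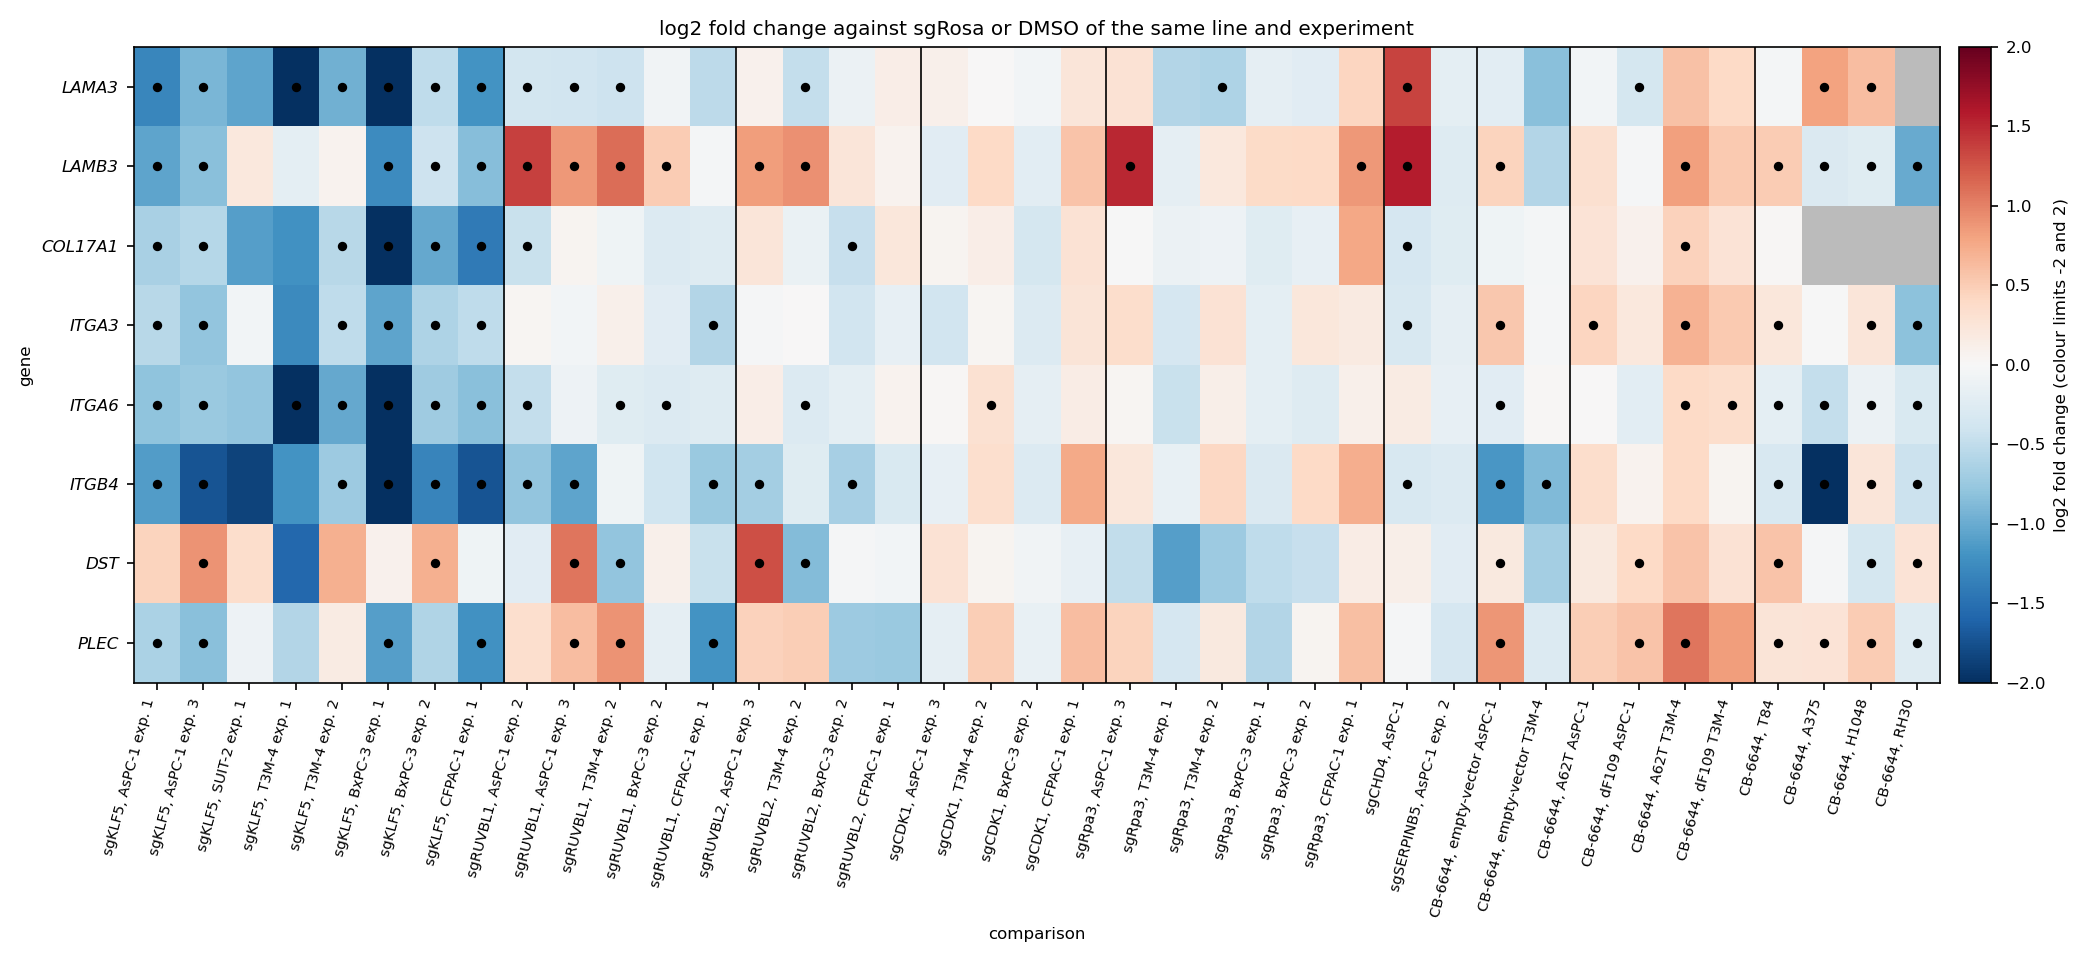
Log2 fold change of each of the 8 genes in every knockout and CB-6644 comparison, colour limits at -2 and 2; a dot marks an adjusted p under 0.05 and grey a gene not tested. The KLF5-knockout columns hold 41 of the lower calls for the 8 genes, LAMB3 is higher in the CHD4 column and in the RUVBL1 columns other than CFPAC-1, and the DST row holds 2 higher and no lower calls in the KLF5 columns.

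Among 39 other genes of laminin, basement membrane, focal adhesion and plakin families, 37 were in the tables. Their counts of calls are to be read against the shares of all genes given above, which several of them come near. Higher after KLF5 knockout were 1888 of 12224 of all genes in AsPC-1 experiment 3 and 3096 of 13246 in T3M-4 experiment 2, where this list had its most higher calls. After KLF5 knockout the tested ones were lower and higher in 3 and 3 of 28 in AsPC-1 experiment 1, 4 and 7 of 27 in experiment 3, 1 and 1 of 28 in SUIT-2, 3 and 0 of 36 and 7 and 9 of 36 in T3M-4 experiments 1 and 2, 14 and 1 of 31 in each BxPC-3 experiment and 17 and 0 of 32 in CFPAC-1. The largest changes were in KRT14, a basal keratin that anchors to hemidesmosomes, from 570.4 ± 38.5 to 9.44 ± 1.68 TPM (SD) in T3M-4 experiment 1 (-5.79, SE 0.19, adjusted p = 2.29e-05), its partner KRT5, from 343 ± 8.20 to 60.1 ± 20.0 (-2.57, SE 0.34, adjusted p = 0.00590), and NTN4, the basement membrane protein netrin-4, which rose from 2.38 ± 0.186 to 21.8 ± 2.21 in AsPC-1 experiment 1 (2.75, SE 0.12, adjusted p = 2.18e-07). After RUVBL1 knockout 7 of 26 were lower and 7 higher in AsPC-1 experiment 2, 3 and 7 of 27 in experiment 3, 4 and 14 of 36 in T3M-4, 3 and 1 of 31 in BxPC-3 and 19 and 0 of 32 in CFPAC-1, and after RUVBL2 knockout 0 and 9 of 27, 5 and 11 of 36, 2 and 0 of 31 and 8 and 0 of 32 in AsPC-1, T3M-4, BxPC-3 and CFPAC-1. RUVBL1 knockout lowered KRT5 (-2.25, SE 0.13, adjusted p = 1.29e-09) and KRT14 (-1.40) in T3M-4 and the proteoglycan gene HSPG2 in CFPAC-1 (-2.01, SE 0.23, adjusted p = 3.88e-05). After CHD4 knockout 7 of 26 were lower and 13 higher. It raised COL7A1, the anchoring fibril collagen, from 1.87 ± 0.186 to 19.0 ± 1.78 TPM (2.80, SE 0.10, adjusted p = 1.76e-09), and PPL, a plakin of the cornified envelope (1.83). CB-6644 lowered 1 of 27 and raised 13 in empty-vector AsPC-1, lowered 4 of 36 and raised 6 in T3M-4, and lowered and raised 4 and 16 of 26 in T84, 9 and 16 of 32 in A375, 6 and 18 of 29 in H1048 and 5 and 17 of 24 in RH30. It lowered the kindlin gene FERMT1 in empty-vector AsPC-1 (-1.45, SE 0.085, adjusted p = 7.88e-08) and raised COL7A1 in A375 (1.67, SE 0.071, adjusted p = 1.97e-09).

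Likeness was described by the Pearson correlation of log2 fold changes over the 39 comparisons with a control, among 9564 genes tested in all of them. The fold changes came from fits without the filter. COL17A1 in A375, H1048 and RH30 and LAMA3 in RH30 therefore entered although they were below it. The comparisons share control libraries and lines, so no test is given. Within the set LAMA3 and ITGA6 were most alike (0.84), ITGA3 and PLEC came next (0.81), and ITGB4 and DST were least alike (-0.21). Among the nearest genes were HERC3 (0.88) for ITGA6, CDC42BPB (0.91) and WASF2 (0.91) for PLEC, LOC401478 (0.87) for LAMA3, CEP290 (0.85) and RAD50 (0.81) for DST, EPB41L1 (0.84) and UPK3B (0.82) for ITGB4, MPRIP (0.82) for COL17A1, AHNAK (0.83) for ITGA3 and PPP1R18 (0.77) for LAMB3.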

How the data were processed

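RNA-seq libraries of 9 established cell lines were compared. Per the labels and the study's methods, single-end poly-A reads were quantified by the authors with kallisto on hg38 and summarised with tximport. The methods name a removal of low-abundance transcripts (limit not stated) beside the DESeq2 step. They do not say that the TPM values were filtered. The deposited values are TPM per gene in 8 tables, summed over isoforms; read counts, and so depth, were not used here. TPM are shares of 1 library, so a rise of abundant genes lowers all others. No 2 libraries were identical.

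Groups came from the labels. TPM were transformed as log2(TPM + 1) and fitted with limma 3.58.1 (R 4.3.3, trended prior) in 1 fit per line and experiment, keeping genes that averaged 1 TPM or more over its libraries. P-values were two-sided and Benjamini-Hochberg adjusted over all genes tested (threshold 0.05). Fold changes on this scale understate changes of low genes. The 3 DMSO libraries of a vector experiment were pooled. The fit was tested on simulated data.

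All 8 genes were covered in every comparison, though not every call is printed. To them were added up to 3 called genes, those with the largest change per family of comparisons, of a list of 39 adhesion and basement membrane genes. The genes most like each member were added too, of which some are printed. Other genes that this rule names are not reported here. The members and lists were chosen with earlier results of these data known. Alternatives were adding 0.1 instead of 1, dropping the filter or raising it to 5 TPM, rescaling each library by its median ratio to the others, fitting only the groups of a comparison, blocking on replicate number, using a vector's own DMSO library as control, and leaving out each library in turn. Leaving out libraries that stood apart, and subtracting each vector's own DMSO, were added after the data had been seen.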

Additional observations from a re-analysis of the deposited data

Results flagged for a closer look

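A library stood far from the rest of its group for a gene in 22 of 240 tests over 15 groups (gap to the nearest library against the group's range), where chance gives about 1 in 20. The AsPC-1 sgSERPINB5 replicate 4 was low for COL17A1 (279 TPM), ITGA3 (69.2) and PLEC (76.01). T3M-4 experiment 1 sgKLF5 replicate 2 was low for LAMB3 (176) and ITGA3 (78.0), and SUIT-2 sgRosa replicate 1 for ITGA6 (164) and PLEC (17.1). CFPAC-1 sgRUVBL1 replicate 1 stood apart for ITGA3 (252) and ITGB4 (78.8). In BxPC-3 experiment 2 the values were COL17A1 389 in sgRosa replicate 2, PLEC 168 in sgRosa replicate 1 and PLEC 107 in sgKLF5 replicate 1. In AsPC-1 they were LAMB3 47.1 in sgRosa replicate 3 of the CHD4 experiment, ITGA3 74.3 in sgRUVBL2 replicate 2 and ITGB4 409.8 in sgRUVBL1 replicate 3. DST was 52.0 in CFPAC-1 sgRosa replicate 1, 63.4 in T3M-4 experiment 2 sgKLF5 replicate 4 and 30.4 in H1048 DMSO replicate 4. The remaining values were COL17A1 58.8 in T84 CB-6644 replicate 4, ITGB4 3.56 in A375 CB-6644 replicate 3, ITGB4 2.55 in RH30 DMSO replicate 2 and PLEC 26.6 in H1048 DMSO replicate 3.

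The KLF5-knockout effect differed between BxPC-3 experiments for COL17A1 (1.79), LAMA3 (1.59), ITGA6 (1.29), LAMB3 (0.85), ITGB4 (0.74) and ITGA3 (0.44). In experiment 1 of each line it differed between basal-like and classical lines for ITGA6 (-1.71), LAMA3 (-1.25), COL17A1 (-1.14) and ITGA3 (-0.86). Both results are from tests of the difference itself.

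Other effects had opposite directions in different lines with every treated library on its own side of the controls; these differences were not tested. After RUVBL1 knockout PLEC was -1.20 in CFPAC-1 and 0.90 in T3M-4. With CB-6644, LAMB3 was 0.51 in T84 and -0.29, -0.25 and -1.01 in A375, H1048 and RH30. ITGA3 was 0.22 in T84, 0.25 in H1048 and -0.83 in RH30. ITGB4 was 0.24 in H1048 and -0.32, -2.02 and -0.43 in T84, A375 and RH30. DST was 0.58 in T84, 0.27 in RH30 and -0.35 in H1048. PLEC was 0.27 in A375, 0.50 in H1048 and -0.26 in RH30. When the libraries were rescaled, the calls lost included ITGB4 in H1048, ITGA3 in T84 and H1048, and PLEC in T3M-4. Not every lost call is named, as the higher calls in the non-pancreatic lines went from 11 to 6.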

How the results depend on the processing

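A pseudocount of 0.1 and a minimum mean of 5 TPM left every count of called members within 1.5 times the reported one, and the other settings did so for the lower calls after KLF5 and RUVBL1 knockout. With no filter the higher calls after KLF5 knockout became 0, those in CB-6644-treated variant cells 5, and the lower calls of variant against empty vector 1. Median-of-ratios scaling moved the share of higher among all called genes by more than 10 points in 37 of 53 comparisons (the median gene had moved by -0.24 to 0.33). It gave 2 lower and 0 higher for CDK1, 3 lower for RPA3, 7 lower and 2 higher for CB-6644 in empty-vector cells, 2 lower and 2 higher in variant cells, 6 higher in the non-pancreatic lines and 10 differences between experiments. With only the groups compared in the fit there were 3 lower for RUVBL2, 2 lower and 0 higher for CDK1, 3 lower and 6 higher for RPA3, 1 lower for CB-6644 in empty-vector cells, 0 lower in variant cells and 5 lower for variant against empty vector. Own-vector DMSO gave 2 higher in empty-vector cells and 0 lower in variant cells, and subtracting it gave 0 lower and 8 higher for variant against empty vector. Without the libraries that stood apart 1 test was higher for RPA3. The causes were not tested.

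Same-numbered libraries correlated from -0.459 to 0.488 and in none of the 16 fits were all pairs above 0.1, with 0 of 8 (SUIT-2) to 9 of 17 (CFPAC-1) libraries closest to their own number, so the numbers are not taken to pair the samples. The replicate block gave 46 lower and 4 higher after KLF5 knockout, 13 and 5 after RUVBL1, 4 and 3 after RUVBL2, 0 higher for CDK1, 2 lower for RPA3, 11 differences between experiments and 2 between basal-like and classical lines.

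Directions turned under scaling for DST in empty-vector AsPC-1 (-0.065), ITGA6 in dF109 T3M-4 (-0.0024) and COL17A1 in T84 (-0.16), and with own-vector DMSO for LAMB3 in dF109 AsPC-1 (0.43). With own DMSO subtracted they turned for LAMA3 (0.43), LAMB3 (0.20) and ITGA3 (0.18) of dF109 AsPC-1, for LAMA3 (-0.34), LAMB3 (-0.11), COL17A1 (-0.048), ITGA3 (-0.17), ITGA6 (-0.028) and PLEC (-0.22) of A62T T3M-4, and for LAMA3 of dF109 T3M-4 (-0.073).

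Leaving out single libraries, KLF5 knockout kept 38 to 45 lower and 1 to 3 higher calls, RUVBL1 11 to 16 and 6 to 7, RUVBL2 4 to 9 and 3 to 5, CDK1 0 and 0 to 1, RPA3 0 to 2 and 1 to 4, CHD4 with SERPINB5 3 and 2 to 4, and CB-6644 2 to 5 and 3 to 4 in empty-vector cells. In variant cells it was 0 to 3 lower and 5 (without T3M-4 dF109 DMSO) to 15 (without T3M-4 A62T DMSO) higher, and 0 to 2 lower and 13 to 20 higher against the empty vector. The non-pancreatic lines gave 12 to 13 and 10 to 11, RUVBL1 against KLF5 23 to 25, KLF5 against CDK1 19 to 23, the experiments 5 to 9 and the classes 1 to 4. RUVBL2 reached 9 lower without BxPC-3 sgRUVBL2 replicate 2, and RPA3 reached 4 higher without CFPAC-1 sgRosa replicate 3.

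Groups of 2 libraries, single DMSO libraries per vector and the unknown depth limit the calls.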
